A study of Mus musculus with 24 samples.

Results

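Skeletal stem cells sorted from microfractured mouse knee joints were compared after BMP2 and after phosphate-buffered saline (PBS), the control, with 1 array for each treatment. The members are the BMP2 and PBS arrays, 2 of the 24 arrays in the series, chosen by their treatment labels in the authors' table of activity scores. Both came from adult C57BL/6J mice of 9 to 25 weeks whose distal femur, the thigh-bone end that forms the knee, had been microfractured, and so did another single array of cells from joints given VEGFr1, written VEGFR1 below. All 3 carry the injury, so the contrast between them is treatment on top of microfracture. Microfracture perforates the bone under joint cartilage so that marrow-derived cells fill the defect. The labels sort the cells as CD45-, TER119-, TIE2-, ITGAV+, THY1-, 6C3- and CD105-, and give neither the dose, the carrier of the factor nor the interval before the sort, nor how many animals were pooled. From 500 to 1000 sorted cells, RNA was amplified through 2 rounds before the array.

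Bone morphogenetic protein 2 is a secreted ligand of the TGF-beta superfamily. It binds type I and type II serine/threonine kinase receptors, which phosphorylate SMAD1, SMAD5 and SMAD9, and these enter the nucleus with SMAD4 and switch on ID genes, inhibitory SMADs and secreted BMP antagonists that hold the signal in check. In skeletal tissue it is known for starting cartilage and bone formation. The VEGFR1 protein is a receptor for VEGF, and its soluble form binds VEGF.

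The score runs from -100 to 100 for each of 45101 probe sets, and neither the way it was calculated nor the meaning of 0 is stated in the labels or files. Differences are therefore in score points, BMP2 minus PBS, never folds, and with 1 array per treatment they have no test and no replicate error of their own. Used were 38557 probe sets that name 1 gene symbol, for 20889 genes, each gene being represented by its highest probe set over the 3 treated arrays. A gene with several probe sets carries its own check, since those probe sets should move together, and 9744 genes have 2 or more. The BMP2 array had 590 probe sets at 99 or more and the PBS array 501, where a score can hardly go higher.

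On this scale 1069 genes were at least 50 points higher in the BMP2 array and 1309 were at least 50 points lower, 5.12% and 6.27% of the genes. The median difference over all genes was -0.34 points and the median absolute difference 12.2 points. At 50 points 11.4% of genes separated BMP2 from PBS, against 17.7% to 41.3% for 16 pairs of replicate bulk bone arrays in the same table. The same share was 10.3% for VEGFR1 against PBS and 11.5% for BMP2 against VEGFR1, contrasts that share arrays with the first. The bulk arrays came from 3 groups: 3 of newborn mice at postnatal day 3, 5 of uninjured adults and 3 of microfractured adults. Pairs of microfractured adult bulk arrays spanned 27.3% to 31.3%, and the 41.3% came from a newborn pair. Bulk bone is another kind of sample, so these pairs give the only replicate spread on the score scale, not that of sorted cells. A count of genes past 50 points is thus no more than separate arrays of 1 group gave, and single genes are described below by value and by how far their probe sets agree.

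**Figure D1:**
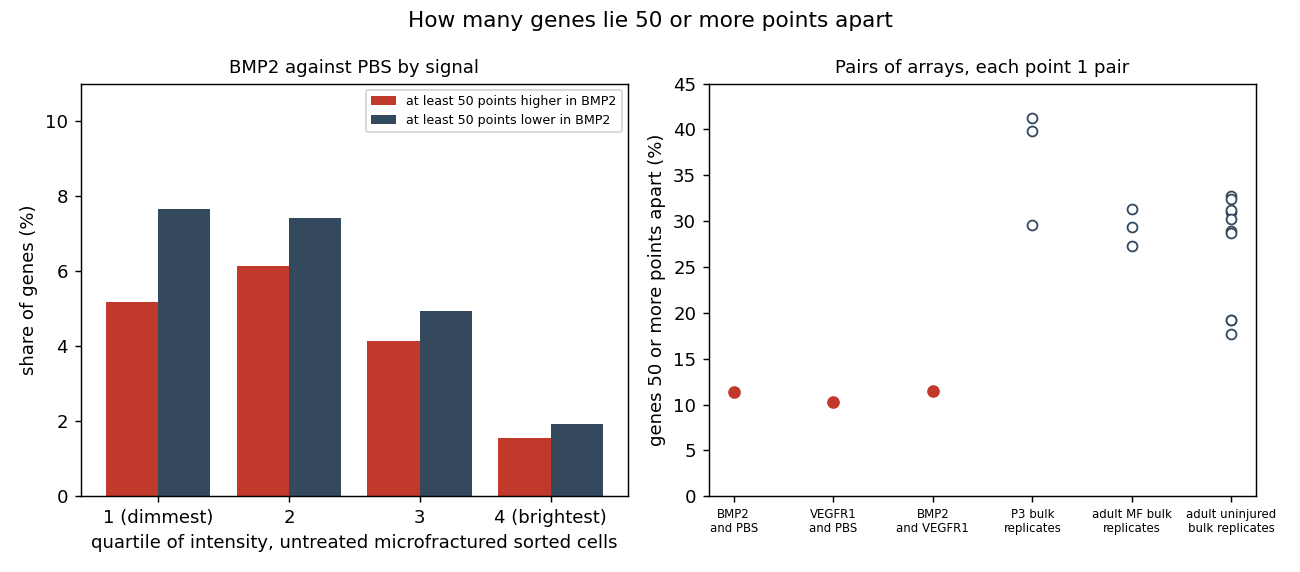
Left, the share of genes (%) at least 50 points higher or lower in the BMP2 array, by quartile of mean intensity in 3 untreated microfractured sorted-cell arrays; right, the share of genes (%) 50 or more points apart in each pair of arrays, filled for pairs of treated sorted cells and open for replicate bulk bone. The share falls to 3.47% either way in the brightest quartile, and the treated pairs lie at 10.3% to 11.5%, under every bulk pair.

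Large differences sat mostly in genes with little signal. The authors' separate intensity table holds 3 arrays of sorted cells from microfractured joints with no factor in their label, and 17303 genes could be found there. Genes of its lowest quartile were 50 or more points apart in 12.8% of cases, those of the highest in 3.47%. Among the 6765 genes above the median of that table on all 3 arrays, 148 were at least 50 points higher (2.19%) and 185 lower (2.73%). Agreement between probe sets was rare. In 84 genes at least 2 probe sets were past 50 points upward with none past it downward (0.862% of genes with 2 or more), and in 105 the reverse held (1.08%). Either way that is 1.94%, against 3.23% to 17.3% in the bulk replicate pairs, so such agreement does not set these genes apart from replicate spread. In 154 genes (1.58%) probe sets of a single gene were past 50 points in both directions. Under a milder criterion chosen after the values were seen, 510 genes (5.23%) had every probe set at least 10 points higher and 744 (7.64%) every one at least 10 points lower. In the bulk replicate pairs 11.6% to 25.8% of genes met that milder criterion in either direction, and between BMP2 and PBS 12.9% did, which lies within the range of the bulk pairs.

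**Figure D2:**
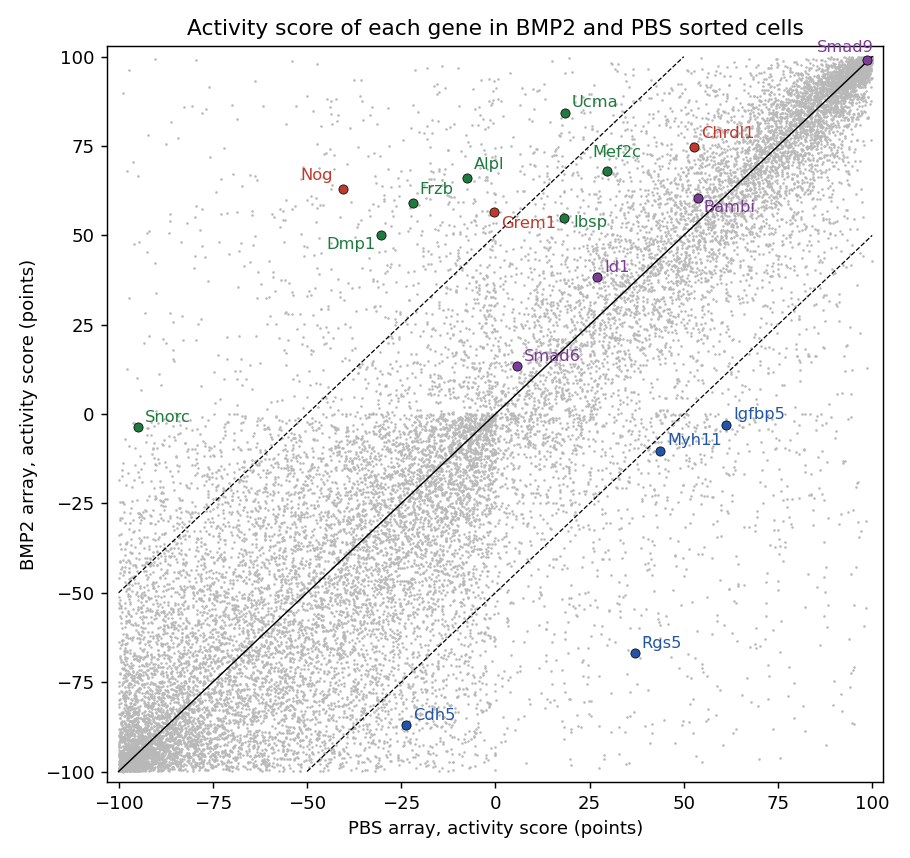
Activity score of every gene in the BMP2 array (vertical axis, points) against the PBS array (horizontal axis, points), 1 point a gene; the solid line marks equal scores and the dashed lines a difference of 50 points. Labels are red for BMP antagonists, green for cartilage and bone genes, blue for genes lower with BMP2 and purple for direct BMP targets. Nog, Grem1, Alpl, Dmp1, Frzb, Ucma and Snorc lie above the upper dashed line, Rgs5, Igfbp5, Myh11 and Cdh5 below the lower, and the direct BMP targets Id1, Smad6, Smad9 and Bambi near the line of equal scores.

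Among genes of the BMP pathway the antagonist Nog had the widest difference on the probe set that stands for the gene. The ligand Gdf11, 80.9 points higher, differed more than the antagonist Grem1. Nog encodes noggin, which binds BMPs and blocks their receptor contact. Its score was 62.9 in the BMP2 array and -8.64 in the VEGFR1 array, against -40.4 in the PBS array, 103.24 points higher with BMP2. Grem1 encodes gremlin, another secreted BMP antagonist, and scored 56.5 with BMP2 and -0.06 with VEGFR1, against -0.46 with PBS, a difference of 56.95 points. Each of these genes has a single probe set, so neither can be checked within the array. Replicate bulk arrays spread by a pooled SD of 70.7 points for Nog and 29.1 for Grem1 (11 arrays in 3 groups). The difference was 1.46 times that SD for Nog and 1.96 times for Grem1. This SD is that of single arrays around their group mean. A difference between 2 arrays spreads more widely, so these ratios overstate the distance and are not a test. Both genes were dim in untreated microfractured cells, at an intensity of 95.6 ± 38.4 and 152.9 ± 36.1 (SD, n = 3), below the table's median of 250.5.

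Chrdl1, which encodes chordin-like 1, is among the 7 antagonists with 2 or more probe sets, and all 4 of its probe sets were higher with BMP2. They scored 61.7, 73.2, 74.7 and 50.4 in the BMP2 array, 6.30, 41.1, 57.3 and 52.0 in the VEGFR1 array, and -12.5, -1.16, 52.8 and 15.1 in the PBS array. The differences ran between 21.9 and 74.3 points and averaged 51.4. The probe set that stands for the gene had the smallest, 21.9 points, beside its bulk SD of 10.4 points. The VEGFR1 array also lay above PBS on all 4 probe sets of Chrdl1, and above BMP2 on the last. Its intensity in untreated microfractured cells was 649.5 ± 349.9 (SD, n = 3).

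Several other antagonists scored lower with BMP2. Fst, follistatin, which binds activins and some BMPs, scored 52.2 with BMP2 and 71.3 with VEGFR1, against 70.0 with PBS, and its second probe set was lower by 14.4 points. Bmper, a chordin-related BMP binder, scored -49.8 with BMP2 and 7.18 with VEGFR1, against -3.62 with PBS. Sost, whose product sclerostin restrains Wnt signalling in bone, scored -41.4 with BMP2, against -7.75 with PBS, but a second probe set ran the other way. Twsg1, twisted gastrulation, shows how far probe sets of a gene can part. The one that stands for the gene scored 92.3 with BMP2, against 93.0 with PBS, while others stood at 18.0 and 10.6 with BMP2, against 87.1 and 67.1 with PBS. Over the 16 antagonists measured, 2 were at least 50 points higher (Nog and Grem1) and 0 at least 50 points lower, beside the 5.12% and 6.27% over all genes. At 30 points, 2 were higher and 4 lower, beside 11.3% and 13.3% of all genes. Of the 7 with several probe sets, 1 was at least 10 points higher on every one and 2 at least 10 points lower, beside 5.23% and 7.64%. The median difference was -0.97 points against -0.34 over all genes.

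The promoters of antagonist and bone genes that stood higher with BMP2 are shown to set those differences beside the sequence a SMAD or RUNX factor could read. Of 6 such genes looked for (Nog, Grem1, Chrdl1, Frzb, Alpl and Ibsp), 4 have an entry in the RefSeq-based table for GRCm38.p6, which holds 250 bases before and 50 after each start, and Alpl has 2 start sites there. Of these 5 windows the 2 with a motif and that of Ibsp, without one, are printed. Capitals mark GGCGCC, the GC-rich letters that BMP SMADs bind, which read the same on both strands, and CAGAC or its complement GTCTG, the SMAD box. The letters TGTGGT or ACCACA of the RUNX core were also searched on both strands. The motifs do not overlap one another in the windows shown.
Grem1 promoter, chr2:113758599-113758898, minus strand, 5′ to 3′: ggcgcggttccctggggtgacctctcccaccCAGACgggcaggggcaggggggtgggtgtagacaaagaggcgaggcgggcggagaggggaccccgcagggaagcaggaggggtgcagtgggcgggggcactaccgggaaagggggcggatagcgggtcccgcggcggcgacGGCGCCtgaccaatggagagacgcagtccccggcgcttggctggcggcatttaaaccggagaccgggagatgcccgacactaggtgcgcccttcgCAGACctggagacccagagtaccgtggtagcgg
Alpl promoter, chr4:137796335-137796634, minus strand, 5′ to 3′: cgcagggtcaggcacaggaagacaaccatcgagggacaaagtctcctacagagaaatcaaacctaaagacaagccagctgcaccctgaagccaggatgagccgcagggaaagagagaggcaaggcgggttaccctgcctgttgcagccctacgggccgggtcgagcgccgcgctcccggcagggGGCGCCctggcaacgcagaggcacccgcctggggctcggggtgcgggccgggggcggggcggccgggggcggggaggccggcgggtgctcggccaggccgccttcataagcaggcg
Ibsp promoter, chr5:104299037-104299336, plus strand, 5′ to 3′: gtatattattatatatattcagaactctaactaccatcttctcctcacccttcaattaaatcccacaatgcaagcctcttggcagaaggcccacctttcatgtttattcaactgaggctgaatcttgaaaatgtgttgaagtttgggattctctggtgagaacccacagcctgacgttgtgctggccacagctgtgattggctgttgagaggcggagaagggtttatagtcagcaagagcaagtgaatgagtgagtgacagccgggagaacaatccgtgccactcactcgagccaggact
The Grem1 window holds GGCGCC at 1 place and the SMAD box at 2, the Alpl window GGCGCC at 1 place, and the windows of Ibsp, Frzb and the second Alpl start none of the 3 motifs. Among all promoters there, 32817 in number, 11.9% hold GGCGCC, 49.6% the SMAD box and 16.8% the RUNX letters. A match is a description of the letters and not a bound site.

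Among genes that BMP SMADs are known to switch on directly, the ID genes, Smad6, Smad7, Smad9 and Bambi differed by 16.5 points or less. This holds for the probe set that stands for each, and Nog, given above, differed more. Id1, the inhibitor-of-differentiation gene most used as a readout of BMP signalling, scored 38.4 with BMP2 and 25.3 with VEGFR1, against 26.9 with PBS, a difference of 11.4 points beside a bulk SD of 21.0 points. Id2 differed by 4.62 points, Id3 by -13.4 and Id4 by -16.5. The inhibitory SMAD genes Smad6 and Smad7 differed by 7.63 and 2.39 points, and Bambi, a decoy receptor gene, by 6.70. Another probe set of Smad7 was 21.6 points higher. Smad9 stood at 99.2 with BMP2 and 98.8 with PBS, near the top of the scale, where no rise could show. On the probe sets that stand for them, Id1, Id2, Id3, Smad6, Smad7 and Bambi thus differed by less than 1 bulk SD. Id4 differed by 1.44, with its probe sets parting in sign.

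Other members of the BMP response list were more mixed. Atoh8, a transcription factor gene induced by BMP in liver and endothelium, scored 92.3 with BMP2 and 73.2 with VEGFR1, against 48.4 with PBS. Hamp, the iron hormone gene that BMP6 drives in liver, was higher on both probe sets, by 38.0 and 11.9 points, but low throughout at -58.8 with BMP2, against -96.7 with PBS. Dlx2 was 27.1 points higher. Dlx6, a homeobox gene of osteoblasts, scored -79.3 with BMP2 and -89.6 with VEGFR1, against -26.7 with PBS. The 5 probe sets of Tbx3 spanned -38.7 to 86.2 points, with the representative at 5.86, and the pair for Msx2 parted in sign. Of 24 response genes, 18 were above 0 and 6 below, beside 9929 above and 10864 below among all 20889 genes. Other lists leaned as well, with 17 above and 6 below for cholesterol and fatty acid synthesis, and 7 and 17 for mitosis. Of the response genes 1 was at least 50 points higher (Nog) and 1 at least 50 points lower (Dlx6), beside 5.12% and 6.27% of all genes. Their median was 6.28 points against -0.34 over all genes. Between replicate bulk arrays the median score of the 24 response genes varied with an SD of 13.8 points.

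Among the ligands, Bmp2 itself scored 76.8 in the BMP2 array and 44.8 in the VEGFR1 array, against 36.2 in the PBS array. The 40.6 points rest on 1 probe set, beside a bulk SD of 16.0 points, and the gene was bright in untreated microfractured cells at 4951.9 ± 801.5 (SD, n = 3). Bmp4 ran the other way, with -67.4 with BMP2 and -45.1 with VEGFR1, against -13.6 with PBS. Gdf11 scored -7.13 with BMP2 and -86.0 with VEGFR1, against -88.0 with PBS, but its intensity in untreated cells was only 50.3 ± 25.3 (SD, n = 3). Inhbb, an activin subunit, was lower by 54.1 points on a probe set whose partner was level. Gdf5, a joint-forming ligand, scored 72.0 with BMP2 and 81.9 with VEGFR1, against 87.1 with PBS. Of 16 ligands measured, 1 was at least 50 points higher (Gdf11) and 2 at least 50 points lower (Bmp4 and Inhbb), beside 5.12% and 6.27% of all genes, with a median of 0.05 points.

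Receptor and signal carrier genes ranged widely in score, between -94.5 (Acvr2b) and 99.7 (Acvr1) with BMP2, and 12 of the 18 were above 0. Acvr1, a type I receptor gene, scored 99.7 with BMP2, against 99.2 with PBS, at the top of the scale, where no rise could show, and its 2 other probe sets differed by 42.1 and -0.32 points. Bmpr1a, another, scored 88.0 with BMP2, against 94.1 with PBS, on the probe set that stands for it, while the other 5 were higher with BMP2 by 3.54 to 32.0 points. Bmpr2, the type II receptor gene, scored 85.1 with BMP2, against 91.5 with PBS, and its other probe sets differed by 0.74 and -31.1. Smad1, which carries the BMP signal, scored 0.00 with BMP2, against 30.1 with PBS, and its other probe sets differed by 34.3 and -12.1. Smad2, which carries the TGF-beta signal, was lower on both probe sets, by 33.3 and 17.0 points. The 33.3 points, on the probe set that stands for the gene, compare with a bulk SD of 77.0. Smad5 differed by 2.70 points and Smad4 by -11.9. None of the 18 genes was past 50 points on the probe set that stands for it, beside 11.4% of all genes. At least 30 points lower were 2 (Smad1 and Smad2) and 0 were as much higher, beside 13.3% and 11.3%. The median was -0.11 points.

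**Figure D3:**
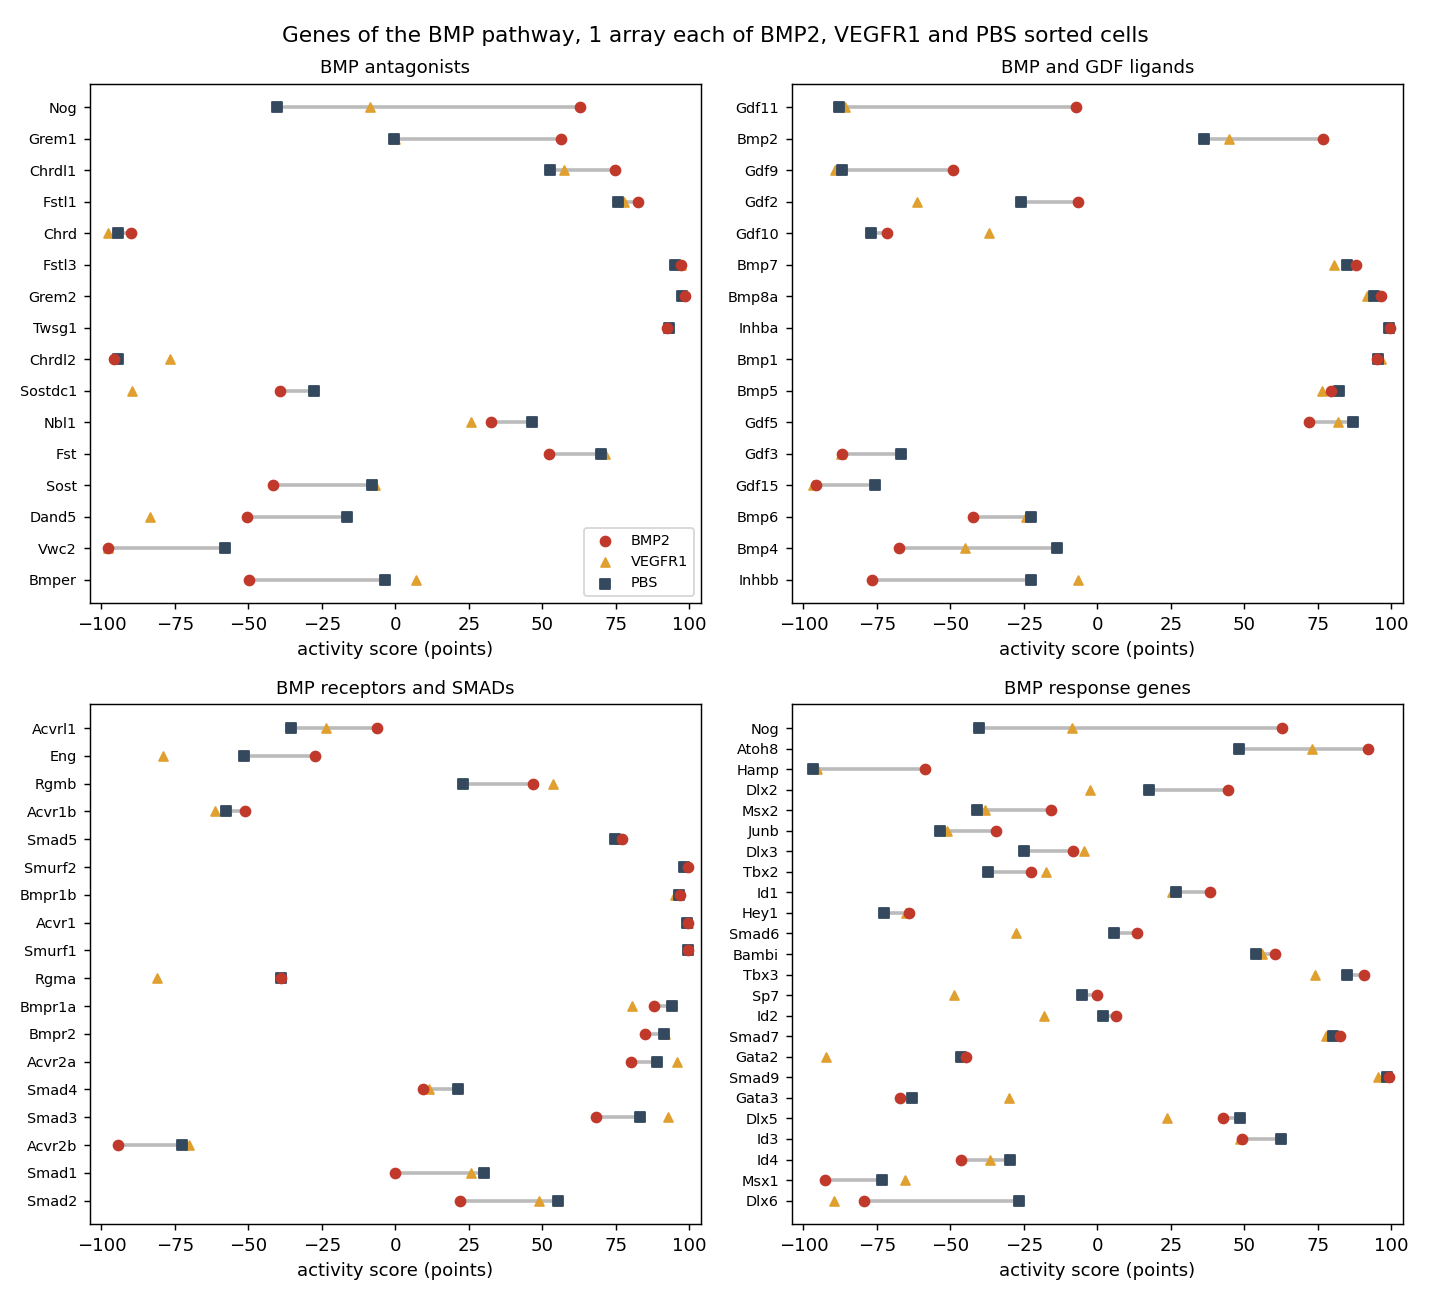
Activity score (points, horizontal axis) of the BMP antagonists, ligands, receptors with SMADs and response genes in the BMP2 (circle), VEGFR1 (triangle) and PBS (square) arrays, ordered by the BMP2 minus PBS difference; the grey line joins BMP2 and PBS. Nog and Grem1 stand apart at the top of the antagonists, while the receptor genes Acvr1, Bmpr1b, Bmpr1a and Bmpr2 and the response genes Id1, Id2 and Id3 lie close together.

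Among genes of mineralising cartilage and bone, Alpl, Dmp1 and Mef2d were past 50 points on the probe set that stands for them, and Ibsp, Mef2c and Smpd3 were higher with BMP2 on every probe set. Alpl, tissue-nonspecific alkaline phosphatase, which clears pyrophosphate so that mineral can form, scored 66.2 with BMP2 and -13.0 with VEGFR1, against -7.56 with PBS, 73.7 points higher beside a bulk SD of 35.7. It has 1 probe set and an intensity of 4547.7 ± 868.0 in untreated microfractured cells (SD, n = 3). Ibsp, bone sialoprotein, which nucleates mineral, was higher on both probe sets, with 55.0 and 59.3 with BMP2 and 43.3 and 39.5 with VEGFR1, against 18.2 and -0.07 with PBS. The VEGFR1 array thus stood between the other two for Ibsp, and level with PBS for Alpl.

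Dmp1 is an osteocyte matrix phosphoprotein gene with 3 probe sets. The higher-scoring of these stood at 50.2 and 3.39 with BMP2 and -11.7 and -31.6 with VEGFR1, against -30.4 and -67.8 with PBS. Both of those have a suffix that marks probes able to match other transcripts, and the remaining one, which has none, was low on both arrays and differed by -8.68 points. All 5 probe sets of Mef2c, a transcription factor gene needed for cartilage hypertrophy, were higher with BMP2, by 14.4 to 44.6 points. The representative scored 68.0 with BMP2 and 30.4 with VEGFR1, against 29.7 with PBS, 38.3 points beside a bulk SD of 36.6. All 3 of Smpd3, a sphingomyelinase gene needed for matrix mineralisation, were higher. Its representative scored 10.14 with BMP2 and -3.07 with VEGFR1, against -15.25 with PBS, 25.4 points beside a bulk SD of 40.95. The probe set of Smpd3 furthest apart scored -4.27 with BMP2 and -27.1 with VEGFR1, against -57.3 with PBS. Ihh, the hedgehog ligand of prehypertrophic cartilage, has 1 probe set and scored -27.1 with BMP2 and -98.1 with VEGFR1, against -75.6 with PBS. All 3 probe sets of Atf4, an osteoblast and stress transcription factor gene, were higher by 21.2 to 38.3 points.

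Other defining markers of the same tissues differed by few points, several of them high on the scale with little room for a rise. Col10a1, the hypertrophic collagen, scored 86.4 with BMP2, against 85.4 with PBS. Spp1, osteopontin, scored 70.4 with BMP2, against 70.6 with PBS, and Col1a1, the main bone collagen, 82.2 with BMP2, against 80.9 with PBS. Runx2, the osteoblast master regulator, scored 99.8 with BMP2, against 99.3 with PBS, at the top of the scale, where no rise could show. Sp7, which acts after Runx2, differed by 5.03 points. Of 15 hypertrophic cartilage genes, 2 were at least 50 points higher (Alpl and Mef2d) and 0 at least 50 points lower, beside 5.12% and 6.27% of all genes, with a median of 5.44 points against -0.34 over all genes. At 30 points, 5 of the 15 were higher and 0 lower, beside 11.3% and 13.3% of all genes. Of 19 bone matrix and osteocyte genes 2 were at least 50 points higher (Alpl and Dmp1) and 0 lower, beside the same shares of all genes, with a median of 1.94 points. At 30 points, 3 of the 19 were higher and 2 lower. Mef2d rested on 1 of 3 probe sets, and another differed by -23.1 points.

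The main cartilage matrix genes also differed by few points. Col2a1, the main collagen of cartilage, scored 94.4 with BMP2 and 95.2 with VEGFR1, against 94.7 with PBS, near the top of the scale. Acan, aggrecan, differed by 10.5 points, Prg4, the lubricin of the joint surface, by 1.72, and Sox9, the cartilage master regulator, by 0.92 on its best probe set, with the others at -17.4 and -34.1. Fmod, fibromodulin, was a little higher on all 6 probe sets, by 5.20 to 16.7 points. Snorc, a chondrocyte membrane proteoglycan gene, scored -3.67 with BMP2 and -32.7 with VEGFR1, against -95.0 with PBS, on 1 probe set. Ucma, a secreted cartilage protein gene, scored 84.3 with BMP2 and 50 with VEGFR1, against 18.4 with PBS, though its second probe set differed by 4.91 points. Scrg1, expressed in chondrogenic cells, scored -85.7 with BMP2 and -9.12 with VEGFR1, against -20.3 with PBS. Of 31 cartilage matrix genes, 2 were at least 50 points higher (Snorc and Ucma) and 1 lower (Scrg1), shares near the 5.12% and 6.27% of all genes. Their median was 1.05 points, and 25 were above the median intensity in untreated cells.

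**Figure D4:**
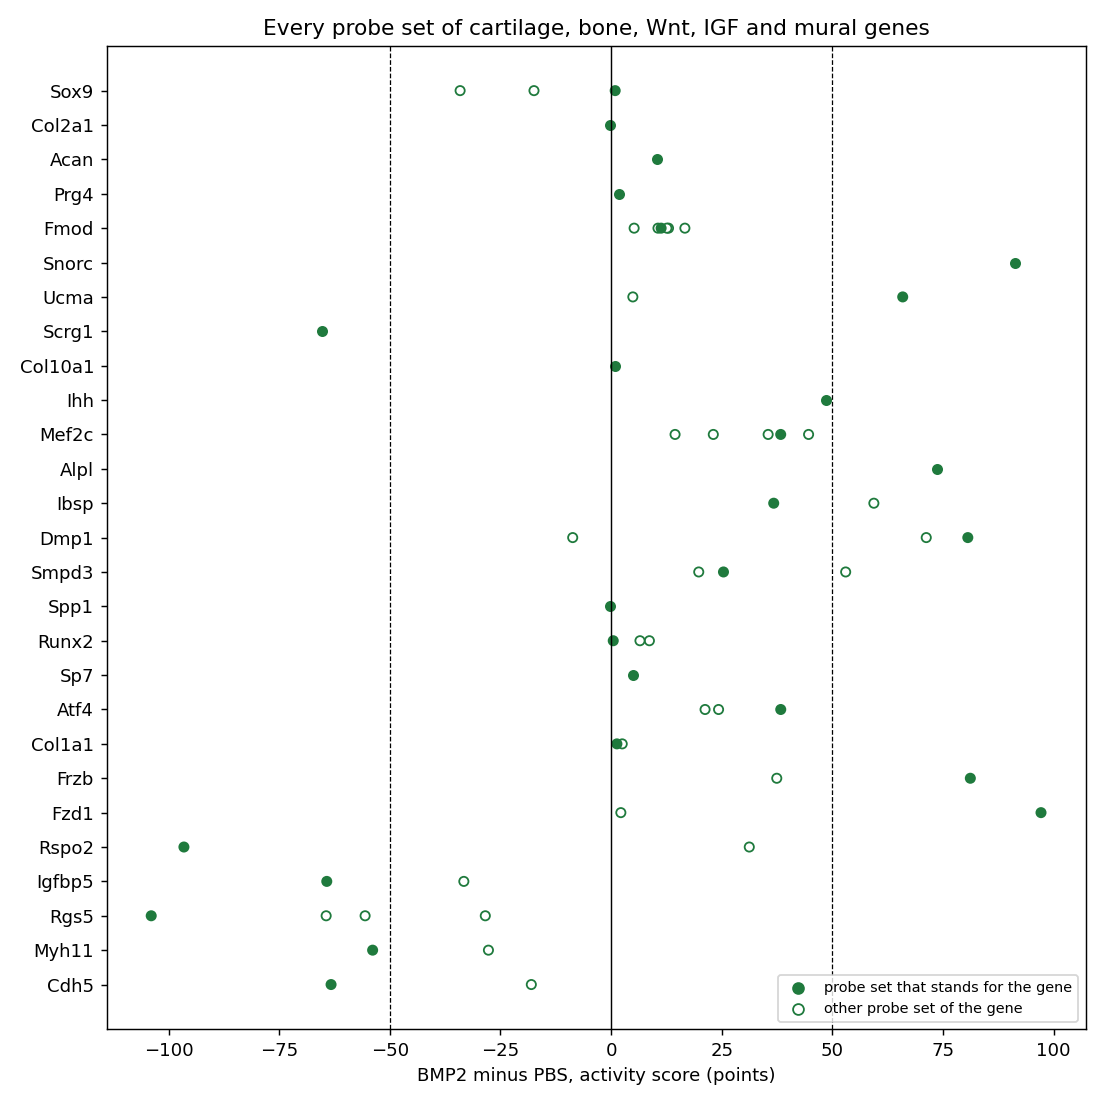
Difference in activity score, BMP2 minus PBS (points, horizontal axis), of every probe set of the named cartilage, bone, Wnt, IGF and mural cell genes; filled circles stand for the gene, open circles are its other probe sets, and dashed lines mark 50 points. Mef2c, Ibsp, Smpd3, Atf4 and Frzb lie wholly to the right of 0 and Igfbp5, Rgs5, Myh11 and Cdh5 wholly to the left, while Col2a1, Col10a1, Spp1, Runx2 and Col1a1 cluster at 0.

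In the Wnt pathway, which acts with BMP in bone, Frzb was higher on both probe sets. Frzb encodes a secreted Wnt antagonist of articular cartilage, and scored 59.2 and -21.1 with BMP2 and 11.6 and -17.6 with VEGFR1, against -22.0 and -58.5 with PBS. The receptor gene Fzd1 scored 82.0 with BMP2 and -13.5 with VEGFR1, against -15.1 with PBS, but its second probe set differed by 2.20 points. Rspo2, a Wnt enhancer, scored -27.0 with BMP2 and -27.9 with VEGFR1, against 69.5 with PBS, and its other probe set ran 31.2 points the other way. Both probe sets of Wnt7b and all 3 of Ror1, a Wnt receptor kinase gene, were lower, by 62.2 to 80.9 and by 33.4 to 115.04 points, though neither gene is on the Wnt list. Of the 36 genes on that list 4 were at least 50 points higher (Fzd1, Frzb, Wnt1 and Wnt6) and 1 lower (Rspo2), beside 5.12% and 6.27% of all genes, with a median of 2.06 points. Wnt1 and Wnt6, among the 4 that were higher, had intensities of only 19.0 ± 22.0 and 40.0 ± 28.4 in untreated cells (SD, n = 3).

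Hedgehog genes showed few probe sets in agreement. Gli1, a hedgehog target, scored -18.3 with BMP2 and -76.9 with VEGFR1, against -67.8 with PBS, and the 3 probe sets of the receptor gene Ptch1 were higher by 2.98 to 43.7 points. Shh and Sufu were lower by 112.26 and 106.0 points on 1 probe set each, with their other probe sets level.

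Of the markers of mural cells, which wrap small vessels, Rgs5, Myh11 and Cspg4 were lower with BMP2 on every probe set, and Acta2 was not. Rgs5, a pericyte marker, was lower on all 4, which scored -46.0, -56.0, -67.0 and -97.4 with BMP2 and -18.9, -7.13, 27.9 and -93.4 with VEGFR1, against -17.6, 8.39, 37.0 and -41.8 with PBS. On the probe set that stands for Rgs5 the difference was -103.92 points, beside a bulk SD of 5.5 points. The intensity of the gene was 1713.2 ± 869.4 in untreated microfractured cells (SD, n = 3). Myh11, a smooth muscle myosin, scored -10.3 and -45.5 with BMP2 and -0.36 and -3.40 with VEGFR1, against 43.6 and -17.8 with PBS. Cspg4, the NG2 proteoglycan, named after its values were seen, was lower on both probe sets. The one that stands for it scored 63.0 with BMP2 and 88.1 with VEGFR1, against 82.9 with PBS.

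Acta2 and Tagln, contractile genes of mural cells and fibroblasts that are not on the vessel list, scored 95.2 and 94.0 with BMP2, against 86.9 and 93.5 with PBS. The other probe sets of Acta2 differed by 4.68 and -0.58 points. Endothelial genes went both ways. Pecam1, of endothelium, scored -83.6 with BMP2 and -98.7 with VEGFR1, against -98.0 with PBS, while Cdh5, also endothelial, scored -87.0 with BMP2 and -19.0 with VEGFR1, against -23.7 with PBS, and was lower on both probe sets. Of 22 endothelial and perivascular genes 3 were at least 50 points lower (Rgs5, Cdh5 and Myh11) and 0 higher, beside 6.27% and 5.12% of all genes. Of the 22, 13 were below 0 and 9 above, with a median of -6.36 points. In the list, 4 of the 10 with several probe sets (those 3 and Cspg4) were at least 10 points lower on every one, beside 7.64% of all genes with several probe sets. Fewer cells of a type and less RNA per cell cannot be told apart here. Of these 22 genes 3 were above the median intensity in untreated cells, and the list's median score was -86.1 with BMP2 and -83.5 with VEGFR1, against -75.1 with PBS.

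Single genes of several other lists were also lower on all their probe sets, while their lists went both ways. Igfbp5, an IGF-binding protein gene and among the brightest in these cells at 11280.7 ± 6099.5 (SD, n = 3), scored -2.95 and 3.21 with BMP2 and 66.0 and 49.3 with VEGFR1, against 61.3 and 36.5 with PBS. Tgfbr2, the type II TGF-beta receptor gene, was lower on all 3 probe sets by 22.3 to 77.2 points, and Tgfbr3, betaglycan, on both by 26.1 and 42.2. Pdgfra, a stromal receptor gene, was lower on all 3 by 8.38 to 29.4 points. Rbpj, the DNA-binding partner of Notch, was lower on all 3 by 18.3 to 24.3 points. Itgb3, an integrin subunit gene, scored -35.4 and -79.6 with BMP2 and 1.45 and -53.9 with VEGFR1, against 19.8 and -36.6 with PBS. None of the 15 TGF-beta genes was past 50 points on the probe set that stands for it, beside 11.4% of all genes. Of these 15 genes 10 were above 0 and 5 below, and the median was 1.12 points. Of the 14 IGF genes 7 were above 0 and 7 below, with a median of 0.32 points.

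VEGF pathway genes were compared because a VEGF receptor was the other treatment. Pgf, placental growth factor, a ligand of VEGFR1, scored 55.4 with BMP2 and 41.4 with VEGFR1, against -27.1 with PBS. Both treated arrays were thus above the PBS array they share, on 1 probe set. The intensity of Pgf in untreated cells was only 70.8 ± 39.4 (SD, n = 3). Vegfa scored 99.8 with BMP2, against 99.8 with PBS. The receptor genes Flt1 and Kdr scored -96.6 and -95.6 with BMP2 and -92.4 and -43.0 with VEGFR1, against -54.7 and -75.6 with PBS. That value of Flt1 rests on 1 of 4 probe sets, and the others, also low, differed by 0.66, 1.72 and 10.2 points.

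The mitosis, DNA replication, ribosomal protein, oxidative phosphorylation and heat shock lists had medians between -4.25 and 3.07 points. Of 24 mitosis genes 0 were past 50 points either way, beside 11.4% of all genes, and the median was -4.25 points. Of 23 DNA replication genes 0 were past 50, with a median of -2.08. The largest differences were -23.3 points for Cdc20 and -43.6 for Cdt1. The 26 cytosolic ribosomal protein genes, 25 of oxidative phosphorylation and 18 of heat shock had 0 past 50 points, beside the same 11.4%. Their medians were 2.94, 2.55 and 3.07. Fibrous matrix genes had a median of -0.34 points, with Eln, elastin, 54.3 points higher and Col14a1 127.65 lower on a probe set whose partners differed by 30.9 and -0.58. Cdkn2c, a cell-cycle inhibitor gene, scored 90.9 with BMP2 and 64.2 with VEGFR1, against 9.96 with PBS, with the other probe set 31.8 points lower.

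**Figure D5:**
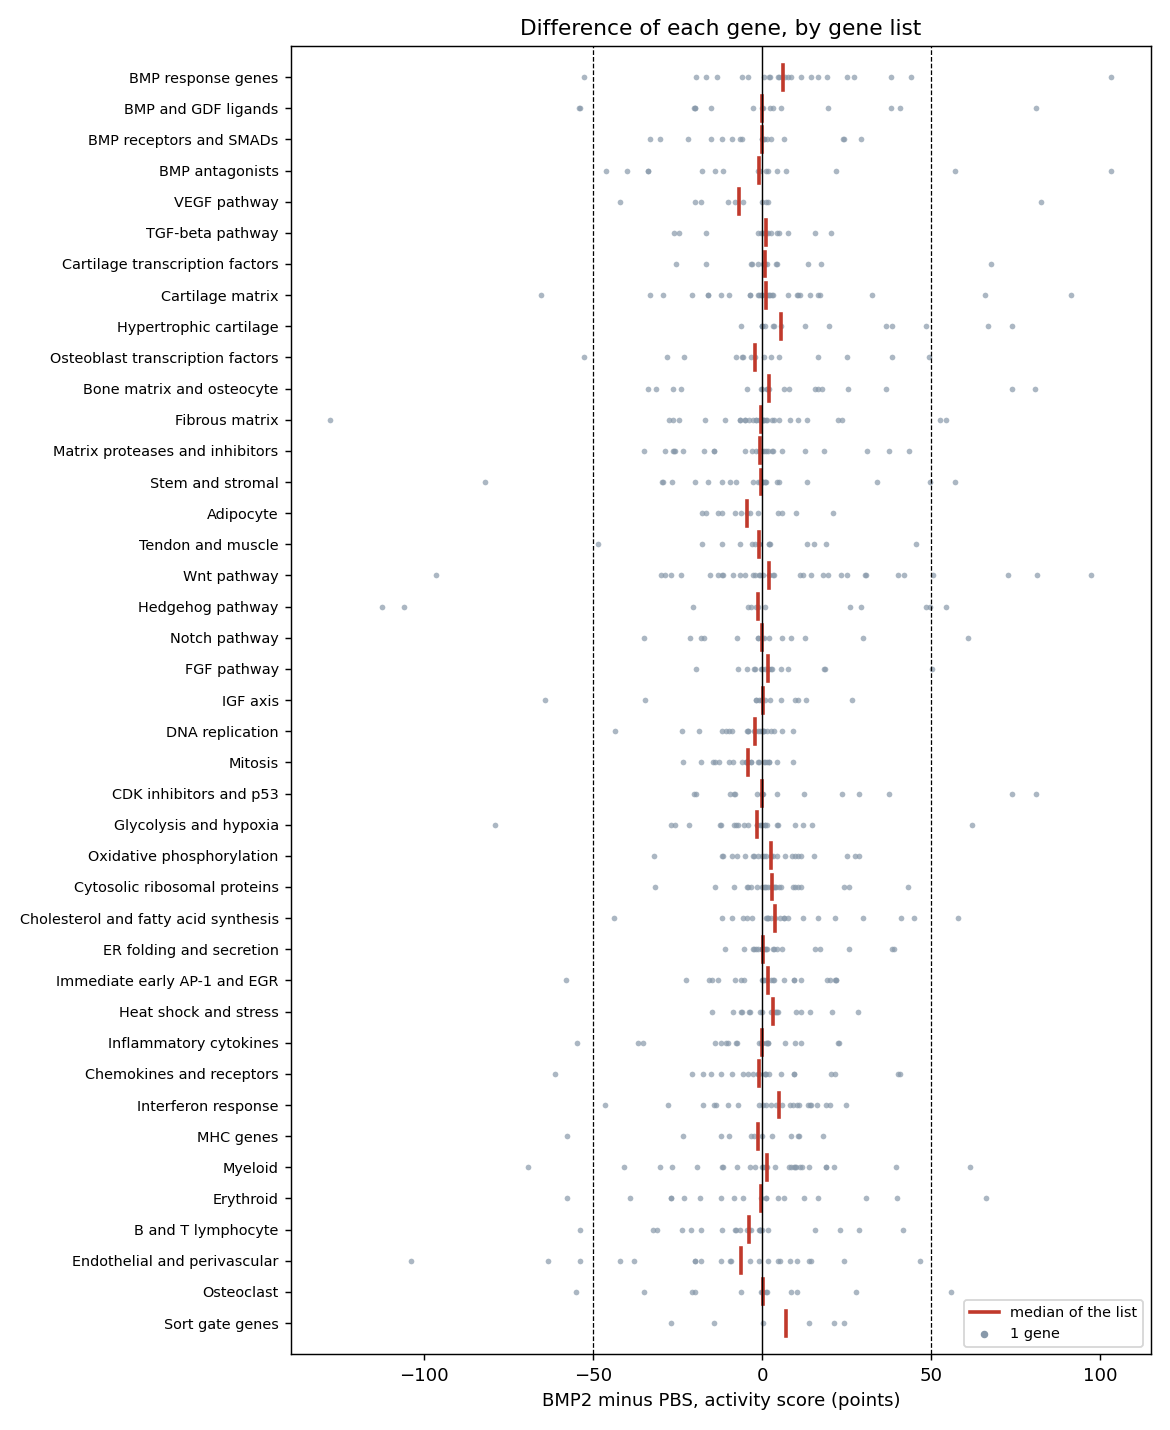
Difference in activity score, BMP2 minus PBS (points, horizontal axis), of each gene in 41 lists; grey points are genes, red bars are list medians and dashed lines mark 50 points. Every median lies between -6.78 and 6.91 points, with single genes of many lists past 50 points.

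The scores of the 6 gate genes are set beside the label, though they cannot check the sort, since the meaning of 0 is not stated. The median over all genes was itself below 0, at -15.5 with BMP2 and -13.1 with PBS. Of the 6 gate genes 3 were above the median intensity in untreated cells. Itgav, the integrin used for positive selection, scored 97.1 with BMP2 and 98.4 with VEGFR1, against 97.0 with PBS on its best probe set, though another of its 5 stood 94.2 points lower with BMP2. Genes for the excluded markers scored below 0 on both arrays: Ptprc (CD45) -42.2 with BMP2, against -63.4 with PBS, and Tek (TIE2) -72.4 with BMP2, against -86.1 with PBS. Thy1 scored -99.2 with BMP2, against -72.2 with PBS, Enpep (6C3) -93.7 with BMP2, against -79.4 with PBS, and Eng (CD105) -27.4 with BMP2, against -51.6 with PBS. Single genes of other cell types went both ways. Of 19 erythroid genes 1 was at least 50 points higher (Hba-a1, 66.1 points) and 1 lower (Car1, 57.8 points). Of 29 myeloid genes 1 was higher (Mpo, 61.6 points) and 1 lower (Lyz1, 69.1 points). Over all genes the shares were 5.12% and 6.27%. The median over the probe sets of Lyz1 was only -13.4 points. The median score of the myeloid list was -71.7 with BMP2 and -73.2 with VEGFR1, against -70.5 with PBS, and that of the erythroid list -59.2 with BMP2 and -41.0 with VEGFR1, against -54.7 with PBS. The part of these cells in any difference above was not tested.

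The genes with the widest differences over agreeing probe sets, 15 each way, included 0 members of the gene lists. The 15 highest averaged 65.6 to 98.6 points over their probe sets and the 15 lowest -66.1 to -115.06. Among the highest were Zbtb49, a zinc finger gene (98.6 points), Crebl2, a leucine zipper gene of the CREB family (90.7), Slc17a9, a vesicular nucleotide transporter gene (88.0), Mfsd8, a lysosomal membrane protein gene (86.0), and Acot2, a mitochondrial acyl-CoA thioesterase gene (71.2). Crebl2 scored 55.9 with BMP2 and 9.07 with VEGFR1, against -72.9 with PBS. Among the lowest were Nphp4, a ciliary gene (-115.06 points), Epm2a, which encodes the glycogen phosphatase laforin (-103.88), Spsb2 (-81.6), Ror1 (-72.3) and Wnt7b (-71.5). Of the 15 highest, 5 were above the median intensity on all 3 untreated microfractured arrays, and of the 15 lowest, 3, beside 6765 of all 20889 genes. Chst2, a sulfotransferase gene among the highest, scored 98.9 with BMP2, against 99.3 with PBS, on the probe set that stands for it. Its 81.8 and 152.3 points came from the 2 lower-scoring ones.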

How the data were processed

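RNA of sorted cells was amplified and hybridised to Affymetrix arrays, per the labels' protocols. The authors deposited an activity score per probe set for the 3 treated sorted-cell and 11 bulk arrays; how it was calculated is not stated. Separately the authors deposited linear intensity per gene for untreated sorted cells, made with MAS5 per the submitters' processing notes. Symbols were updated through the reference gene table. Scores were used as deposited with pandas 2.3.3, without further normalization. Arrays were grouped by title. With 1 array per treatment no test was made, and 50 points replaced a threshold of significance; the number of arrays limits the precision, and depth has no meaning for arrays. The pooled SD of a gene comes from replicate bulk arrays around their group means. It describes single arrays, and a difference between 2 arrays spreads more widely. The counting was tested on simulated data. Named genes are the 15 highest and 15 lowest with 2 or more agreeing probe sets, BMP pathway and gate genes, up to 6 members with the largest differences in each other list, and 9 genes always named; not every gene under the rule is reported here. Acta2, Col10a1, Cspg4, Fmod, Pecam1, Prg4, Smpd3, Spp1, Tagln and, among the other observations, Enpp2, Car8, Has1, Col4a1 and Mrc2 are outside this rule and were named after their values were seen. Members and lists were chosen with earlier results of these data known. Alternatives were another representative probe set, scaling, filter, probe set kind and threshold.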

Additional observations from a re-analysis of the deposited data

How the results depend on the processing

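No paired analysis was possible because each treatment has 1 array, and for the same reason no replicate could be left out. The counts at 50 points, 1069 genes higher and 1309 lower, became 2368 and 2770 at 30 points and 411 and 510 at 75 points. Restricted to probe sets with a score above 0 in BMP2 or PBS they became 679 and 791, and restricted to genes above the median intensity of untreated cells, a filter chosen after seeing the data, 148 and 185. The counts with 2 or more agreeing probe sets, 84 higher and 105 lower, became 290 and 376 at 30 points, 22 and 16 at 75 points, and 47 and 37 for scores above 0; they use every probe set, so the choice of a representative does not enter. Fewer probe sets or another threshold enter each of these by construction. Median over probe sets, the representative over all 14 arrays, quantile normalization, centring and leaving out shared-probe suffixes kept these counts within 1.5 times, where they apply. The median over all genes was -0.67 to 2.07 points, above 0 only with each array centred on its median, and that of the BMP response genes 6.28 to 8.69. Of 47 genes in the text past 50 points, 29 stayed past it in the same direction in every setting tried on single genes. A difference changed sign for Col14a1 and Sufu with the median over probe sets (3.53 and 2.61 points), for Rspo2 with the representative over all 14 arrays (31.2) and for Dmp1 without shared-probe suffixes (-8.68). The cause was not tested. Signal limits the dim genes, among them Nog and Grem1.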

Other observations

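Inflammatory and antigen-presentation genes held single large differences. Il6, an inflammatory cytokine gene, scored -66.5 with BMP2 and -5.13 with VEGFR1, against -11.8 with PBS, and Cxcl5, a neutrophil chemokine gene, -62.7 with BMP2 and -2.09 with VEGFR1, against -1.37 with PBS. Il33 and Lif were lower by 36.7 and 35.3 points, while the chemokine gene Cxcl2 was 40.8 points higher. The median over the probe sets of Lif was -17.4 points. Of 22 inflammatory cytokine genes 0 were at least 50 points higher and 1 lower, beside 5.12% and 6.27% of all genes. Of 23 chemokine genes the same counts held, and the medians of these 2 lists were -0.20 and -1.01 points. Jund, an AP-1 subunit gene, scored 29.1 with BMP2 and 88.0 with VEGFR1, against 87.0 with PBS, but the median over its probe sets was -31.1 points. H2-D1, a major histocompatibility complex gene, was 57.8 points lower, but the median over its probe sets was -18.6 points. Of 12 genes of that complex 0 were at least 50 points higher and 1 lower, with a median of -1.24 points. Of 24 interferon response genes 0 were past 50 points either way, beside 11.4% of all genes, with a median of 4.94.

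Of 23 genes of cholesterol and fatty acid synthesis 1 was at least 50 points higher and 0 lower, beside 5.12% and 6.27% of all genes, 3 were at least 30 points higher, beside 11.3%, and the median was 3.90 points. Hmgcs1, an early step of cholesterol synthesis, was higher on all 5 probe sets by 2.99 to 40.9 points. Trib3, a target of Atf4, scored 50.04 with BMP2 and 35.0 with VEGFR1, against 11.1 with PBS, and was also higher on its other probe set, by 16.7 points. Ddit3, another target, was 25.6 points higher on 1 probe set and 15.1 lower on the other.

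Some well-measured genes were chosen after their values were seen. Enpp2, the gene for autotaxin, and Car8 were each higher on all 3 probe sets, by 14.9 to 82.3 and by 38.4 to 69.6 points. Has1, a hyaluronan synthase gene, scored 74.7 with BMP2 and -3.78 with VEGFR1, against -36.5 with PBS, on 1 probe set. Col4a1, a basement membrane collagen gene, was lower on both probe sets, by 46.1 and 38.6 points, and so was Mrc2, a collagen uptake receptor gene, by 48.7 and 32.3.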
